A study of Mus musculus with 6 samples.

Results

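The genes described here make, degrade and organise hyaluronan, together with the large proteoglycans of the cell coat and basement membrane. They were chosen by name: the hyaluronan synthases Has1, Has2 and Has3, the hyaluronan-degrading genes Hyal1, Hyal2 and Cemip, the hyaluronan-modifying gene Tnfaip6, and the proteoglycan genes Vcan, Hspg2 and Agrn. All 10 had a row among the 20645 listed genes. RNA sequencing was done on mesenchymal stromal cells (MSC) sorted from the lungs of C57BL/6 mice with the genotype Tbx4-rtTA/TetO-Cre/mT-mG. In these mice the lung mesenchyme driver Tbx4-rtTA switches on Cre when doxycycline is present, and Cre turns the membrane reporter from red (TdTomato) to green (GFP). All animals had doxycycline from embryonic day 6.5 to postnatal day 1, and their age at sorting is not given in the sources used here. The red group (mT, 3 libraries) thus holds cells in which the reporter was not switched, and the green group (mG, 3 libraries) cells in which it was, or their descendants. Both groups carried the same alleles and the same treatment. The study set mG against mT to compare these subpopulations of MSC.

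Hyaluronan is a long unsulfated sugar chain that synthases at the plasma membrane extrude directly into the matrix from cytosolic UDP-sugars. It swells the loose matrix of developing and injured lung, is bound by versican and by receptors such as CD44, and is cut into fragments by hyaluronidases and by the Cemip protein. Perlecan, encoded by Hspg2, and agrin, encoded by Agrn, are heparan sulfate proteoglycans of basement membranes.

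Total counts per library ran from 16853561 to 19429138. The labels do not say that replicates were separate animals, and the spread behind each p-value may therefore be technical. The 9 mesenchyme markers summed to between 12165 and 27228 CPM (counts scaled to the library total with TMM factors). Among them Col1a1 had 1118 to 8276 CPM, lowest in mG replicate 2, while Dcn had 4.73 to 94.1 CPM and Lum 0 to 25.5 CPM. The summed level was 9.21 to 19.0 CPM for the 8 listed of 10 leukocyte markers. It was 0.763 to 3.97 CPM for the 3 listed of 10 epithelial markers. Among the leukocyte markers Ptprc had 0 to 6 counts per library. Lyz2 had 180, 247 and 263 counts in mT and 24, 107 and 96 in mG. Csf1r had 37, 15 and 35 counts in mT and 117, 197 and 128 in mG. Lyz2 and Csf1r thus differed between the groups in opposite directions, which the summed level does not show. The 7 listed of 8 endothelial markers summed to 51.4 CPM in mT replicate 1, where Emcn had 662 counts, and to 0.538 to 12.3 CPM in the other 5 libraries. The 6 smooth muscle markers ran from 2004 CPM in mG replicate 2 to 14908 CPM in mG replicate 1. The part of such cells in the levels given here was not tested. The library mG replicate 2 stood apart: the 8 listed cartilage markers summed to 3670 CPM there and to 13.8 to 81.5 CPM in the other 5 libraries. In bulk RNA, fewer cells of a type and less RNA per cell cannot be told apart.

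Cemip and Hspg2 far exceeded the other members in transcript level. On a per-length scale, CPM per kilobase of merged exons, the mean over 6 libraries was 135 for Cemip and 117 for Hspg2. Hyal2 followed at 7.58, Vcan at 4.98, Agrn at 4.92, Has2 at 1.74, Hyal1 at 1.65 and Tnfaip6 at 0.753, with Has3 at 0.126 and Has1 at 0.0998 at the low end. Among 20549 genes with a length, Cemip ranked between 202 and 906 in the 6 libraries and Hspg2 between 302 and 715. The next member, Hyal2, ranked between 3343 and 5772. The ranges over the 6 libraries were apart between Hspg2 and Hyal2 and between Tnfaip6 and Has3. All other neighbours in the order overlapped in their ranges, Cemip and Hspg2 included, so the ranges do not resolve their order. With the gene lengths listed by the authors, the mean of Has2 was above Agrn, Tnfaip6 above Hyal1 and Has1 above Has3.

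**Figure D1:**
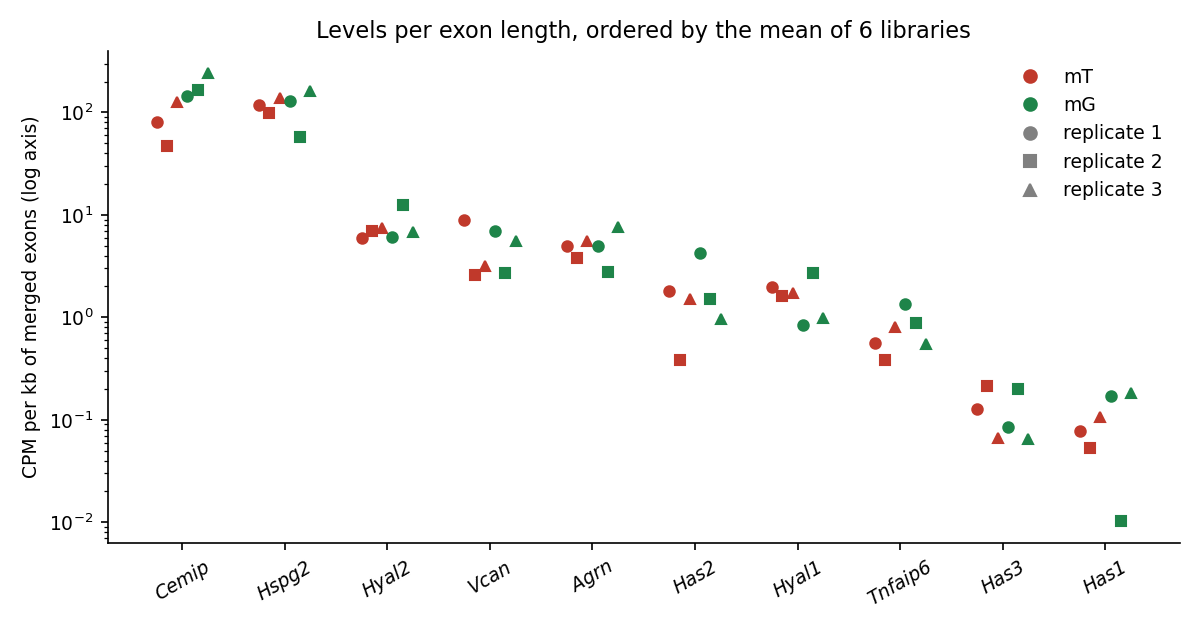
Level of each gene in CPM per kilobase of merged exons on a log axis, with mT libraries in red, mG libraries in green and a symbol for each replicate number. Cemip and Hspg2 lie between 47.4 and 242, above all other members, and Has3 and Has1 lie below 0.22.

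Sequences in front of the transcription start are shown because the members' levels spread over 3 orders of magnitude. Those of Cemip and Hspg2, the most abundant members, and of Has1, with the lowest mean on merged exons, are given. They are 250 bases each, ending at the base before the annotated start, from RefSeq on GRCm38.p6. The Cemip stretch is chr7:84086506-84086755 on the minus strand, that of Hspg2 chr4:137468553-137468802 on the plus strand and that of Has1 chr17:17855189-17855438 on the minus strand. Capitals mark the motif TATAAA, the core of a TATA box.
Cemip: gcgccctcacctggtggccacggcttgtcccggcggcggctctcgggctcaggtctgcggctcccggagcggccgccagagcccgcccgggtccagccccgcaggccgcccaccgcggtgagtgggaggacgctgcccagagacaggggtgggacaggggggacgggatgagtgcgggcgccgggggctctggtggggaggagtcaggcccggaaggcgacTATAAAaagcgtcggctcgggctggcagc
Hspg2: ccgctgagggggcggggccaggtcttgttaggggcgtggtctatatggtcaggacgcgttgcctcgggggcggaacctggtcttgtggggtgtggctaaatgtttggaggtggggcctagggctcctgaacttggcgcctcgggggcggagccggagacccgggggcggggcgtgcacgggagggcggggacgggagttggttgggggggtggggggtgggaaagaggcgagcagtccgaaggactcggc
Has1: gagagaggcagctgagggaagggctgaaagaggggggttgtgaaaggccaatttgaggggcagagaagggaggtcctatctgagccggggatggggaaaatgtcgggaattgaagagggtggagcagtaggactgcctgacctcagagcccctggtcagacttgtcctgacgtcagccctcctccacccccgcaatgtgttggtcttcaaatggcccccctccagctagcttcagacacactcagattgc
In Cemip the motif begins 29 bases before the start. Of 32851 RefSeq promoters of the same length, 12.4% hold TATAAA on either strand, and 1.99% hold it on the sense strand between 40 and 15 bases before the start. Neither strand of the Hspg2 or Has1 stretch holds it. The Cemip stretch has 26 CpG dinucleotides, Hspg2 20 and Has1 4, against a median of 6 over all promoters. In slightly longer windows that run past the start, Cemip held 33, Hspg2 27 and Has1 5. In the same windows Agrn held 42 and 11 at separate starts, Hyal2 18, Vcan and Tnfaip6 12 each and Hyal1 8. The largest number was thus in Agrn, which was far below Cemip and Hspg2 in level. Has2 and Has3 had no entry. These matches and numbers describe the sequence and do not show which factors act there.

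No member passed the test of mG against mT. In edgeR's quasi-likelihood test with Benjamini-Hochberg adjustment over 13560 genes, 0 of the 9 members tested had an adjusted p of at most 0.05, against 0.914% of all genes tested. At an unadjusted p under 0.05 there was 1 member, Cemip, against 14.6% of all genes tested. DESeq2 called 0 of 10, against 5.96% of the genes it adjusted, and limma-voom 0 of 9, against 0.678%. The median log2 fold change of the 9 tested members was 0.09, and that of all genes tested was 0.02. These misses do not show that levels were equal, since the 95% intervals were wide.

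**Figure D2:**
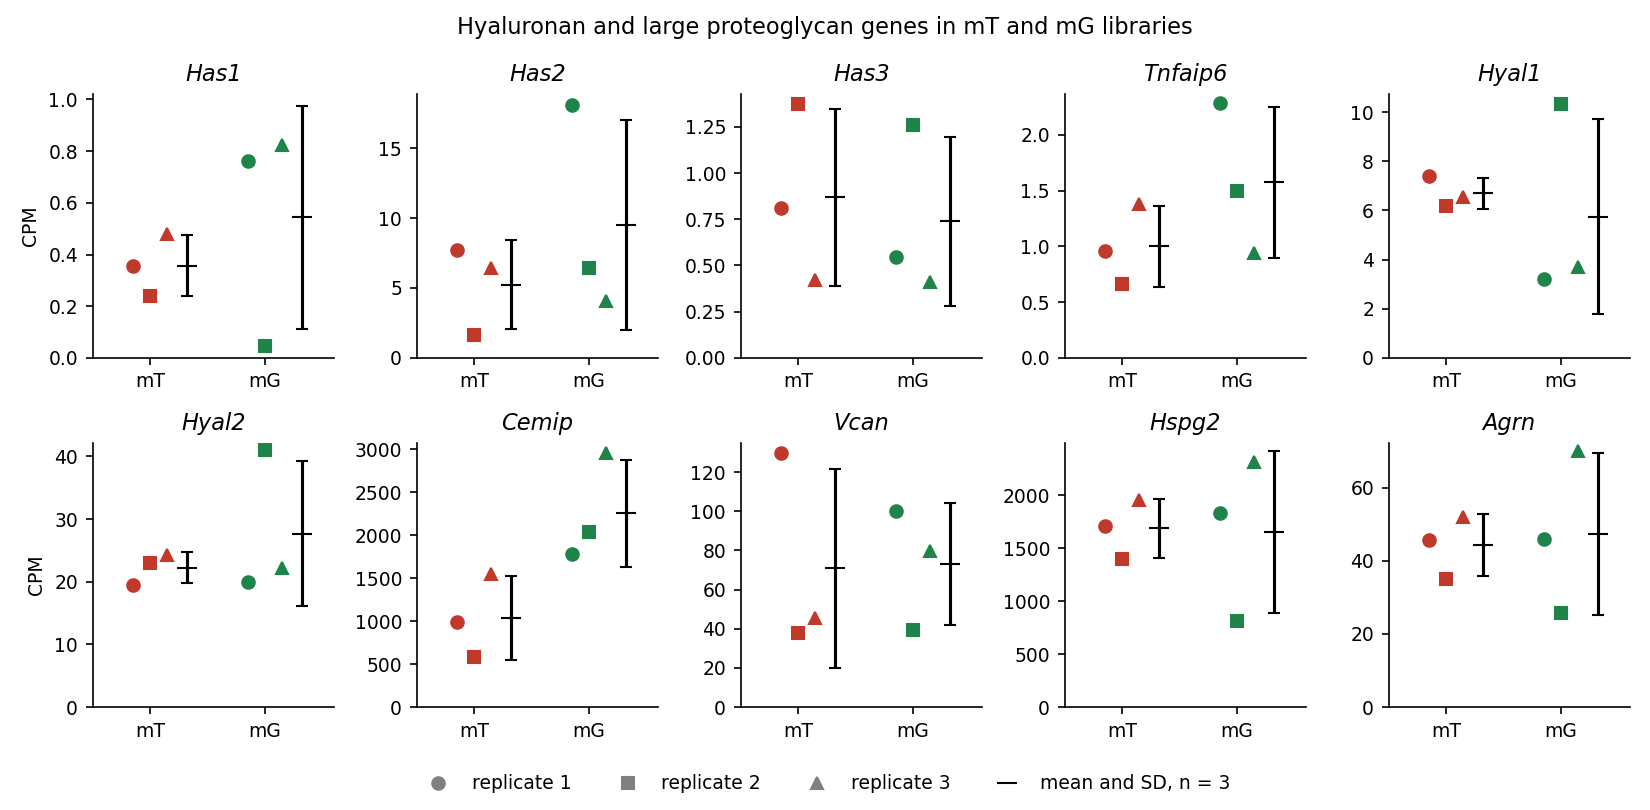
CPM of each of the 10 genes in the 3 mT libraries (red) and the 3 mG libraries (green), with the mean and SD beside the points and a symbol per replicate number. The groups overlap in every panel but that of Cemip, whose mG values begin at 1776 CPM and whose mT values end at 1554 CPM.

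Per kilobase of merged exons, Has2 held most of the synthase transcript in every library. In mT replicate 2 this rests on 27 counts of Has2, against 23 of Has3 and 4 of Has1. Has2 encodes the synthase that mouse embryos need for heart development. Has2 had 7.69, 1.61 and 6.41 CPM in mT replicates 1 to 3 and 18.1, 6.40 and 4.06 CPM in mG. The highest value was in mG replicate 1 and the lowest in mT replicate 2, and the groups overlapped. Its fitted log2 fold change was 0.86 ± 0.74 (SE, n = 3 per group), with a 95% interval of -0.91 to 2.63 and adjusted p = 0.692. Without mG replicate 1 the value was -0.0018.

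Has3 encodes another synthase and was scarce. It had 0.810, 1.38 and 0.419 CPM in mT and 0.545, 1.26 and 0.412 CPM in mG. In both groups replicate 2 was highest and replicate 3 lowest. In the fit mG differed from mT by -0.21 ± 0.64 (log2, SE), with adjusted p = 0.939. Its sign turned without mT replicate 2, at 0.26, and without mG replicate 3, at 0.065, and the value was -0.86 without mG replicate 2.

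Has1, the third synthase gene, had 7, 4 and 8 counts in mT and 14, 1 and 14 counts in mG. It was below the minimum for testing. The ratio of mG to mT in counts per library total was 1.44, with an exact 95% counting interval of 0.781 to 2.72 that covers counting error only. In mG replicate 2 its level of 1 count was below the floor of 3 counts, which is 0.140 CPM in that library.

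Of the summed per-length level of the 3 synthase genes, Has2 made up 79.4% ± 18.0 in mT and 87.3% ± 7.45 in mG (SD, n = 3). The library with the lowest Has2 share was mT replicate 2, at 58.7%, where Has3 made up 33.2%. In the other 5 libraries the Has2 share lay between 79.5% and 94.4%. Has2 shares 182 exonic bases with the antisense gene Has2os, which had 2 to 18 counts per library, and Has3 shares 352 with Chtf8 on the opposite strand. The libraries do not record strand, so reads in these stretches cannot be assigned.

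Among the degrading genes, Cemip stood out by level and by the position of its groups. Its protein binds hyaluronan and is needed for hyaluronan breakdown in human skin fibroblasts. It had 986, 580 and 1554 CPM in mT replicates 1 to 3 and 1776, 2035 and 2957 CPM in mG. All mG values lay above all mT values, and in replicates 1 to 3 they were 1.80, 3.51 and 1.90 times the mT value of the same number. A gap of this kind upward in mG was seen in 9.95% of all genes tested, and 20.5% were higher in mG within all 3 pairs. The fitted fold was 2.17, with a 95% interval of 1.09 to 4.30 and adjusted p = 0.292, so the difference did not pass over all genes. Adjusted p was 0.177 with the replicate number as a block and 0.0848 with DESeq2. The authors' deposited table gives Cemip a log2 fold change of 1.12 with an adjusted p of 0.163. That value comes with a likelihood-ratio score and with the authors' own normalization, labelled RUV_UQ, so it is not like for like.

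Counting error is small for Cemip, which had between 9701 and 50234 counts per library. The mesothelial markers, 5 of 8 of which were listed, summed to 80.2 CPM in mG replicate 3, the library with the most Cemip, and to 6.45 to 23.5 CPM elsewhere. The lowest sum was in mG replicate 2, where Cemip was higher than in any mT library. The part of such cells in the Cemip level was not tested.

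Hyal2 encodes a hyaluronidase anchored to the cell surface that cuts long chains into intermediate fragments. It had 19.5, 23.0 and 24.2 CPM in mT and 19.9, 40.9 and 22.2 CPM in mG. The library mG replicate 2 was the high one, and the other 5 lay within 5 CPM of each other. Its fitted log2 difference of 0.32 ± 0.30 had adjusted p = 0.721, and became -0.09 without mG replicate 2.

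Hyal1 encodes the lysosomal hyaluronidase. It had 7.39, 6.16 and 6.53 CPM in mT and 3.21, 10.3 and 3.71 CPM in mG. The mT libraries were close together, while mG fell on both sides of them. For Hyal1 the fit gave a log2 difference of -0.21 ± 0.48 (adjusted p = 0.911), or -0.96 (adjusted p = 0.121) without mG replicate 2. It turned to 0.071 without mG replicate 1 and 0.018 without mG replicate 3. Hyal1 shares 50.8% of its merged exon length with Naa80 on the same strand, which had 113 to 323 counts per library, so its count is uncertain.

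Within each library the ratio of Hyal1 to Hyal2 in CPM was 0.378, 0.268 and 0.269 in mT and 0.162, 0.252 and 0.167 in mG. These ratios did not overlap between groups, were looked at after the values were seen, and rest on the uncertain count of Hyal1. Of the summed per-length level of Hyal1, Hyal2 and Cemip, Cemip made up 89.7% ± 4.51 in mT and 94.7% ± 2.72 in mG. The per-length level of Cemip was 32.1 to 201 times that of the 3 synthase genes together.

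Tnfaip6 encodes TSG-6, which transfers heavy chains of inter-alpha-trypsin inhibitor onto hyaluronan and is induced by inflammatory signals. It had 0.961, 0.658 and 1.38 CPM in mT and 2.29, 1.5 and 0.942 CPM in mG. The mG replicate 3 value fell among the mT values, so the groups overlapped. The fit gave 0.66 ± 0.49 on the log2 scale (adjusted p = 0.632), on 11 to 42 counts per library.

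Hspg2 was the most abundant of the proteoglycan members and one of the steadier ones in mT. It had 1708, 1401 and 1958 CPM in mT and 1835, 817 and 2313 CPM in mG. The lowest value was in mG replicate 2, the library with the high cartilage sum, and the highest in mG replicate 3. The fold was 0.98, with a 95% interval of 0.503 to 1.91 and adjusted p = 0.988. Without mG replicate 2 the log2 value was 0.28 in place of -0.03, still with adjusted p = 0.517, and without mT replicate 3 it was 0.095.

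Agrn followed the same order of libraries within each group. It had 45.7, 35.1 and 51.9 CPM in mT and 45.9, 25.7 and 70.0 CPM in mG. Replicate 2 was lowest and replicate 3 highest in both groups, as for Hspg2. The CPM of Agrn was 2.5% to 3.15% of that of Hspg2 in all 6 libraries, although Hspg2 itself ranged 2.83-fold. The fitted log2 difference of Agrn was 0.09 ± 0.36 (adjusted p = 0.954), and turned to -0.051 without mT replicate 2 and -0.30 without mG replicate 3.

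Vcan encodes versican, a chondroitin sulfate proteoglycan whose head domain binds hyaluronan. It had 130, 37.7 and 45.5 CPM in mT and 100, 39.2 and 79.8 CPM in mG. Replicate 1 was highest and replicate 2 lowest in both groups, and mT replicate 1 was the highest of all. Its CPM was 2.32% to 7.58% of that of Hspg2, a wider range than that of Agrn. The fitted log2 difference of Vcan was 0.04 ± 0.55 (adjusted p = 0.987). It was 0.81 without mT replicate 1 and turned to between -0.26 and -0.023 without mT replicate 2 or 3 or mG replicate 1 or 3.

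The order of Cemip and Hspg2 differed between the groups. Per kilobase of merged exons, Cemip was 0.675, 0.485 and 0.928 times Hspg2 in mT replicates 1 to 3 and 1.13, 2.91 and 1.5 times in mG. With the gene lengths listed by the authors the mT replicate 3 ratio was 1.11, so the crossing at 1 depends on the length used. The gap between the groups does not, since a change of length scales all libraries alike. The ratio was chosen after its values were seen and carries no test.

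**Figure D3:**
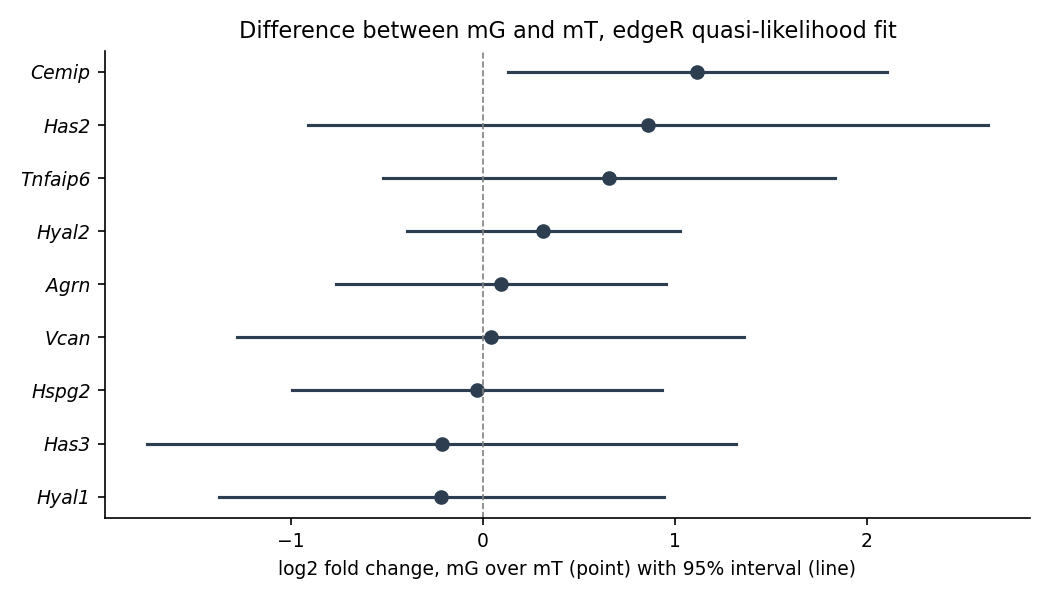
Fitted log2 fold change of mG over mT for the 9 genes tested, as points, with 95% intervals of the quasi-likelihood fit as lines and a dashed line at no difference. The interval of Cemip runs from 0.13 to 2.11 before any adjustment, and the other 8 intervals include 0.

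The surrounding pathway was read from 9 lists holding 115 names, of which 100 had a row and 81 were tested. Calls and p-values are those of edgeR's quasi-likelihood test unless another tool is named. Of the 81, 0 were called higher and 1 lower in mG, against 0.199% and 0.715% of all genes tested. At an unadjusted p under 0.05 there were 23 of the 81, a larger share than the 1977 of 13560 (14.6%) over all genes tested. DESeq2, which called 5.96% of the genes it adjusted, called 7 higher and 6 lower among the 100 with a row. Limma-voom called 0 higher and 1 lower. The median log2 fold change of the 81 was 0.05. The groups did not overlap for 11 genes higher in mG and 13 lower, against 1349 and 1474 of the 13560 genes tested. The lists were chosen with earlier results known, so these shares describe them and carry no test. The gene called by edgeR was Ndst3, which encodes an enzyme that removes acetyl groups from heparan sulfate and adds sulfate in their place. Ndst3 had 11, 10.8 and 5.99 CPM in mT and 0.0545, 0.234 and 0.177 CPM in mG. Every mG value was far below every mT value. Ndst3 fell by 5.82 ± 0.56 on the log2 scale with adjusted p = 0.0138. The mG values rest on 1, 5 and 3 counts, below the floor of 3 counts in replicate 1 and at it in replicate 3. The gene passed the expression filter through mT, and the size of the fall is uncertain. Adjusted p became 0.0577 without mT replicate 1, 0.0632 without mT replicate 2 and 0.0746 without mG replicate 3.

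Of 11 genes for hyaluronan precursors, 10 were tested, and edgeR called 0 in either direction, with 2 at an unadjusted p under 0.05. DESeq2 called 1, Gfpt2. Of the 10 tested, 9 were fitted above 0, against 7194 of the 13560 genes tested, with a median of 0.11. Gfpt2 encodes an isoform of the enzyme that commits glucose to the hexosamine pathway, the source of UDP-N-acetylglucosamine. It had 18.0, 7.24 and 15.1 CPM in mT and 54.0, 24.1 and 42.1 CPM in mG. The groups did not overlap, and the mG value was 3.00, 3.33 and 2.79 times that of the mT library with the same number. Adjusted p was 0.17, 0.0114 with DESeq2 and 0.0367 with the replicate number as a block, a fit that called 0.796% of all genes tested. Ugp2, which makes UDP-glucose, had 106 ± 9.24 CPM in mT against 140 ± 18.7 CPM in mG (adjusted p = 0.291). Ugdh, which oxidises UDP-glucose to UDP-glucuronate, had 107 ± 3.86 and 142 ± 34.0 CPM with adjusted p = 0.41.

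Of the other degrading genes, 5 of 10 names had a row, 4 were tested, and both edgeR and DESeq2 called 0, with 2 at an unadjusted p under 0.05 and a median of -0.05. Cemip2 encodes a membrane protein related to Cemip. It had 37.1, 45.0 and 33.2 CPM in mT and 32.5, 18.4 and 18.7 CPM in mG, so its groups lay apart in the direction opposite to those of Cemip. A gap downward in mG was seen in 1474 of the 13560 genes tested. On the log2 scale the difference of Cemip2 was -0.73 ± 0.26 (adjusted p = 0.283). Gusb, the lysosomal beta-glucuronidase gene, had 69.7 ± 8.38 and 109 ± 25.9 CPM with adjusted p = 0.228, and Hexa, a subunit gene of lysosomal hexosaminidase, 254 ± 62.3 and 231 ± 98.5 CPM with adjusted p = 0.919.

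Of 17 receptor and binding protein genes, 15 had a row and 10 were tested. EdgeR called 0, with 3 at an unadjusted p under 0.05 and a median of -0.18, and DESeq2 called 1, Tlr2, lower. Habp4 had 57.7 ± 6.23 CPM in mT against 42.2 ± 2.37 CPM in mG (adjusted p = 0.189). Tlr2, an innate immune receptor gene reported to respond to hyaluronan fragments, had 8.44 ± 0.327 and 2.55 ± 1.80 CPM with adjusted p = 0.264, or 0.0455 with DESeq2. Hmmr, whose product binds hyaluronan and the mitotic spindle, had 12.8 ± 8.32 and 44.0 ± 36.9 CPM with adjusted p = 0.336. Its value of 86.6 CPM in mG replicate 1 stood above 24.9 and 20.5 CPM in the other mG libraries, and without that library the log2 difference was 0.83 in place of 1.78. The main receptor gene, Cd44, had 323, 409 and 428 CPM in mT and 375, 82.7 and 130 CPM in mG, with overlap through mG replicate 1 and adjusted p = 0.474.

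Some binding partners were seen almost solely in mG replicate 2. Hapln1, which encodes a link protein that locks hyaluronan to aggrecan, had 51.5 CPM there and 0 to 2.38 CPM in the other 5 libraries. Susd5 had 214 CPM there and 0 to 0.299 CPM elsewhere. Acan, the aggrecan gene of cartilage, had 7.52 CPM there and 0.0589 to 0.658 CPM elsewhere. These 3 genes and Cd44 were singled out after their values were seen, and Hapln1 and Acan also belong to the cartilage markers that set this library apart.

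Of the inter-alpha-trypsin inhibitor list, 4 of 6 names had a row and 1 was tested. That gene was Itih2, a heavy chain gene of the complex that TSG-6 transfers to hyaluronan. It had 3.69, 2.63 and 5.03 CPM in mT and 12.1, 67.3 and 52.9 CPM in mG. The groups did not overlap, mG replicate 1 was the lowest of its group, and the log2 fold change of 3.54 ± 0.66 had adjusted p = 0.077. DESeq2 called it, with an adjusted p of 2.87e-07, and without mG replicate 1 edgeR gave 0.0229. The edgeR fit without that library called 71 genes in all, against 124 with all libraries.

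Of 7 versican-cleaving protease genes, 6 had a row and 5 were tested. EdgeR called 0, and DESeq2 called 2 higher, Adamts1 and Adamts15. At an unadjusted p under 0.05 in edgeR there were 4 of the 5, against 14.6% of all genes tested. The median log2 fold change of the 5 was 1.54, against 0.02 for all genes tested. Adamts15, among the 4, passed the expression filter only through its mG counts, and the list was chosen with earlier results known. These values describe the list and carry no test. Adamts1 had 444, 263 and 541 CPM in mT and 753, 1964 and 1351 CPM in mG, without overlap, with adjusted p = 0.152, or 0.0022 with DESeq2. Adamts9 had 3.04 ± 0.0836 and 8.85 ± 5.61 CPM with adjusted p = 0.25. Adamts15 had 1 count in mT and 229 in mG, a ratio of 216 in counts per library total. The exact 95% counting interval of 38.4 to 8572 covers counting error only. Its fitted fold was 147, with a 95% interval of 14.2 to 1519 and adjusted p = 0.089, or 5.46e-05 with DESeq2. Of the 229 counts, 181 came from mG replicate 2, 34 from mG replicate 1 and 14 from mG replicate 3. Without mG replicate 2 the fitted log2 difference of Adamts15 was 5.71 in place of 7.20, and the adjusted p-values of Adamts9 and Adamts15 were 0.0477 and 0.0489. That fit called 362 genes in all, against 124 with all libraries.

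**Figure D4:**
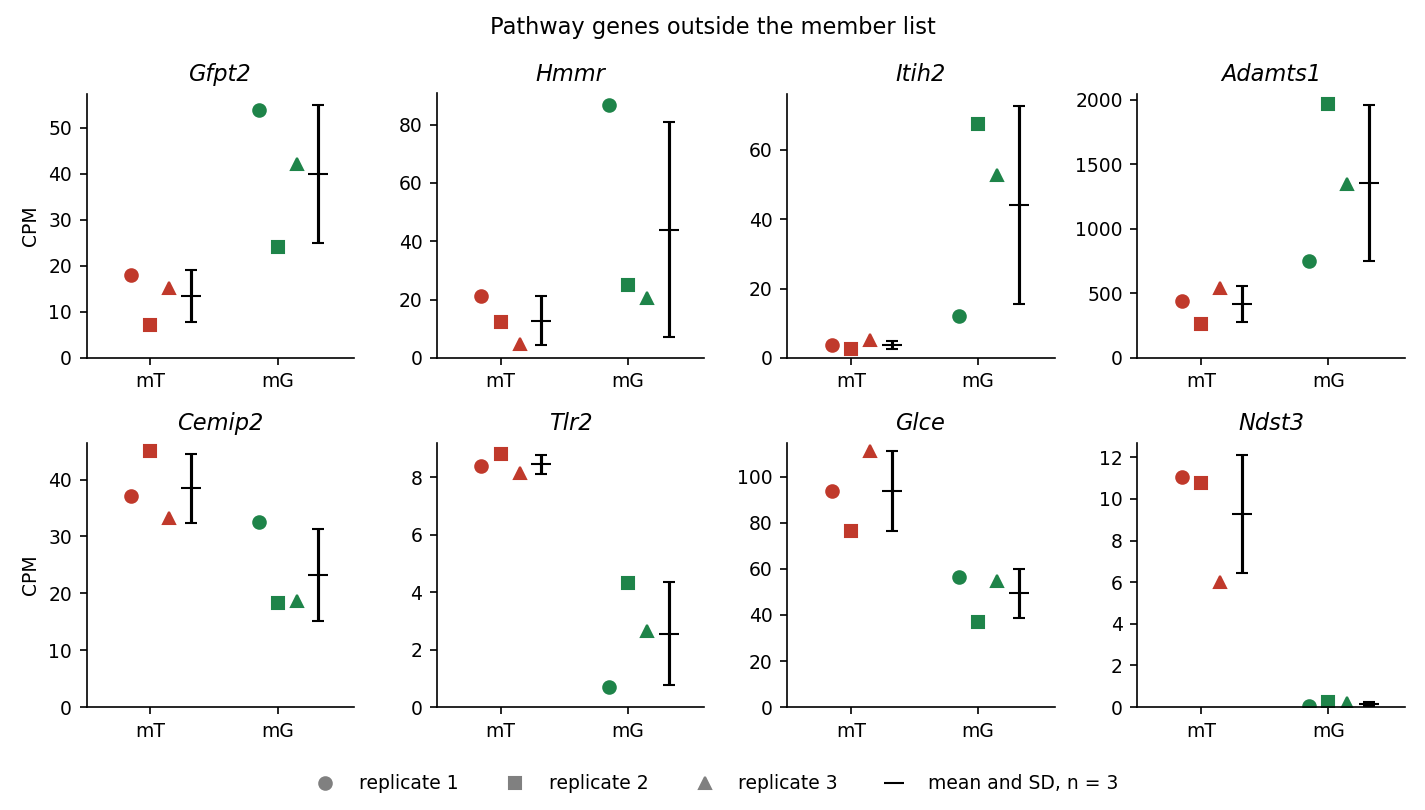
CPM of 8 pathway genes in the mT (red) and mG (green) libraries, with the mean and SD beside the points and a symbol per replicate number. Ndst3 is near 0 in all mG libraries, and Itih2, Gfpt2 and Adamts1 lie higher in each mG library than in any mT library without passing edgeR's test with no replicate block, while DESeq2 called all 3 of them.

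Of 12 other large proteoglycan genes, 10 had a row and 6 were tested. EdgeR called 0, with 1 at an unadjusted p under 0.05 and a median of -0.22, and DESeq2 called 1, Ptprz1, lower. Ptprz1, a receptor phosphatase carrying chondroitin sulfate, had 47.6, 12.3 and 20.1 CPM in mT and 9.80, 1.36 and 0.824 CPM in mG, without overlap, with adjusted p = 0.293, or 0.0338 with DESeq2. Prg4, the lubricin gene, had 0.511 ± 0.541 and 2.06 ± 2.10 CPM and Bcan, the brevican gene, 0.396 ± 0.277 and 0.742 ± 0.203 CPM, with adjusted p = 0.506 and 0.587. All 3 genes for cell-surface receptors of agrin and perlecan were tested. EdgeR called 0, with 1 at an unadjusted p under 0.05, and DESeq2 called 1, Musk, lower. Musk, the kinase through which agrin signals at the neuromuscular junction, had 2.35 ± 1.95 and 0.246 ± 0.298 CPM with adjusted p = 0.216, or 0.02 with DESeq2. The mG counts of Musk, 1, 2 and 10, would not have passed the expression filter alone, so it was tested through mT. Its partner Lrp4 had 14.2 ± 9.84 and 18.6 ± 24.4 CPM, and Dag1, the dystroglycan gene, 428 ± 84.5 and 631 ± 212 CPM, with adjusted p = 0.921 and 0.457.

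Chain synthesis genes made up the remaining lists. Of 22 linker and chondroitin sulfate genes, 21 were tested. EdgeR called 0, with 5 at an unadjusted p under 0.05 and a median of -0.09, and DESeq2 called Chst11 higher and Chst13 lower. The chondroitin sulfotransferase gene Chst11 had 34.5 ± 4.85 CPM in mT against 90.3 ± 40.1 CPM in mG (adjusted p = 0.164, 0.0132 with DESeq2, or 0.0417 without mG replicate 3). The fit without mG replicate 3 called 32 genes in all, against 124 with all libraries. Chst13, of the same family as Chst11, had 2.62 ± 0.384 and 0.451 ± 0.366 CPM with adjusted p = 0.173, or 0.00684 with DESeq2. Its mG counts of 8, 2 and 14 would not have passed the expression filter alone, so it was tested through mT. Csgalnact2, which starts chondroitin chains, had 70.9 ± 3.73 and 56.8 ± 5.01 CPM with adjusted p = 0.307. Of 27 heparan sulfate genes, 24 had a row and 21 were tested. EdgeR called Ndst3 alone, with 4 at an unadjusted p under 0.05 and a median of -0.03, and DESeq2 called 2 higher and 2 lower. Glce, the epimerase gene of heparan sulfate, had 93.8 ± 17.3 and 49.3 ± 10.8 CPM with adjusted p = 0.135, or 0.022 with DESeq2. The sulfotransferase gene Hs3st3a1 had 0.793 ± 0.428 and 5.66 ± 2.49 CPM with adjusted p = 0.111, or 0.000122 with DESeq2. Its mT counts of 21, 5 and 17 would not have passed the expression filter alone, so it was tested through mG.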

How the data were processed

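Per the labels' protocols, lung cells were enzymatically dissociated and sorted by flow cytometry, and unstranded libraries were made. Reads were handled with STAR, cutadapt 5.0, Trimmomatic 0.38, FastQC 0.11.9 and edgeR 4.0, per the submitters' processing notes. Which genome build, annotation and counter were used is not given in the sources used here.

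The authors deposited 1 table with whole-number counts per gene and library, which were used for all tests. The RPKM columns, per the file headers, are the authors' counts per listed length and depth. The columns named TMM hold the authors' scaled signal. The authors' log2 fold changes, likelihood-ratio score, p-value with adjustment and −log10 of the p-value are in the same deposited table, and were used only where the text names it. For 97.5% of genes the listed length was within 5% of the exons of all GENCODE M21 transcripts added up, so per-length levels here use merged exons of that annotation.

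Total counts were 16853561 to 19429138 per library, and 3 counts correspond to 0.140 to 0.180 CPM on the TMM scale. Rows without a gene name held 0.013% to 0.0352% of counts and were left out. Tests used edgeR 4.0.16 in R 4.3.3 (glmQLFit, glmQLFTest, TMM factors of 0.926 to 1.13, filterByExpr with minimum count 10) on 13560 genes with Benjamini-Hochberg adjustment at 0.05. The fit was run on simulated independent libraries drawn with the dispersions of these data. The simulation held no shared replicate effect and no library that stood apart, so it cannot say how the fit handles these. Standard errors are the log2 fold change over the square root of F, and intervals are 95%.

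The members and lists were chosen with earlier results of these data known. Named in the text are the 10 members, the called genes of each list and up to 3 tested genes with the smallest adjusted p. Replicate numbers occur in both groups. Deviations from group means correlated at 0.24, 0.18 and 0.3 between same-numbered libraries, each above 0.1. The numbers were therefore read as pairs in the within-pair ratios and in the fit with the replicate block. The main fit and its p-values did not use them. The pairing comes from these same counts, since no label explains the numbers. Alternatives were RLE and upper-quartile normalization, no filter, CPM of at least 1 in 3 libraries, DESeq2 1.42.0, limma-voom (limma 3.58.1), the replicate block and leaving out each library. Omission of both replicate 2 libraries and use of the listed length were added after seeing the data.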

Additional observations from a re-analysis of the deposited data

How the results depend on the processing

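No member was called under any of the 14 other fits, and Cemip and Tnfaip6 kept their direction in all that tested them. The log2 fold change of Cemip ran from 0.83 to 1.53, with adjusted p from 0.0848 to 0.622. Values near 0 changed sign with single libraries. Over the 6 omissions of 1 library, Has2 ran from -0.0018 to 1.24, Has3 from -0.86 to 0.26, Hyal1 from -0.96 to 0.071, Hyal2 from -0.093 to 0.51, Vcan from -0.26 to 0.81, Hspg2 from -0.35 to 0.28 and Agrn from -0.30 to 0.37. Without both replicate 2 libraries Hyal2 was -0.072 and Hspg2 0.16, and with limma-voom Agrn was -0.018. Among pathway genes, Hexa ran from -0.52 to 0.10 over the omissions, and Lrp4 was -0.11 with limma-voom, -0.25 with the replicate block, -0.97 without both replicate 2 libraries and ran from -1.66 to 1.08 over the omissions. The cause of these changes was not tested. The replicate block gave 108 calls over all genes, added Gfpt2 and ended no call of a named gene.

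The count of genes called, 124 (27 higher, 97 lower), was 960 (475, 485) with DESeq2 and 46 (10, 36) without both replicate 2 libraries, and limma-voom called 17 higher. Omitting 1 library gave 20 to 362 calls (0 to 132 higher, 20 to 230 lower). Among pathway genes, 0 were called higher and 1 lower. DESeq2 called 7 and 6, the block 1 higher, the omissions 0 to 2 higher and 0 to 1 lower, and the omission of both replicate 2 libraries 0 lower. With listed lengths Hspg2 made up 94.1% of the large proteoglycans in mG in place of 91.8%, more than the SD. Depth limits Has1 and Has3, at 1 to 27 counts per library.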
